A study of Mus musculus with 6 samples.

Results

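Small leucine-rich proteoglycans are secreted matrix proteins built around a short run of leucine-rich repeats. The genes described here were the 9 named members Dcn, Bgn, Lum, Fmod, Ogn, Omd, Prelp, Aspn and Chad, found by symbol among the 17666 genes of the deposited expression table. All 9 were listed, and all 9 passed the filter on low values (a mean of at least 1). Auditory nerves were microdissected from the cochleas of young adult C57 mice aged 1.5 to 2.5 months, 3 wildtype and 3 with a knockout of complement factor B (FactorB KO). Each library came from 1 mouse, with its 2 cochleas pooled. The C57 substrain and the way the knockout allele was made are not given in the sources. The comparison asked how the nerve differs when complement factor B, a protease of the alternative pathway, is deficient.

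Members of this family bind collagen fibrils and set their diameter and spacing, and several hold growth factors of the transforming growth factor beta family in the matrix. Most carry chains of chondroitin, dermatan or keratan sulfate. In peripheral nerve they belong to the connective tissue sheaths and the endoneurium, and they are also abundant in bone, cartilage and ligament. Several of them bind complement proteins: fibromodulin, osteomodulin and chondroadherin bind C1q and complement inhibitors, decorin and biglycan bind C1q, and PRELP inhibits the membrane attack complex.

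Of the 9 genes, none passed an adjusted p of 0.05 by limma, while 0.158% of all genes did (0.0566% lower). Before adjustment 3 of the 9 had a p under 0.05 by limma, all lower under the knockout label. At that level 9.20% of all genes were lower and a further 10.8% higher. Lum, Ogn and Omd were these 3, at 0.536, 0.61 and 0.532 times their mean under the wildtype label. In the authors' deposited table, Ogn and Lum were called as lower at a false discovery rate under 0.05, against 6.53% of all genes called there, or 2.87% called as lower. The log2 difference was below 0 for 6 of the 9 and for 49.3% of all genes, and values of the 2 labels did not overlap for 3 of the 9 (Dcn, Lum and Ogn), against 28.5% of all genes. Bgn, Fmod and Chad had nearly equal means under both labels.

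Before these values are read, 3 facts about the libraries apply. Cfb, the targeted gene, went against the labels, with 55, 39 and 116 normalized counts under the wildtype label but 336, 351 and 376 under the knockout label, so all directions here are between libraries as labelled. The values are counts scaled by the authors, with similar column totals, so the number of reads behind each value is unknown. Wildtype replicate 3 stood apart: it held the highest value of 27.9% of all genes and the lowest of 27.2%, the most of any library. Wildtype replicate 2 came next, with 22.9% and 23.5%. Among the members replicate 3 was the highest library for Lum, Omd, Aspn and Chad and the lowest for Fmod. Wildtype replicate 2 was the highest for Dcn, Bgn, Fmod and Ogn. The neuron and Schwann cell markers that define the labelled tissue were present in every library, with summed levels of 314417 to 532756 and 403580 to 736792 normalized counts. Genes of the neighbouring spiral ligament were as abundant: their summed level was 419909 to 763153 under the wildtype label and 359636 to 478736 under the other, most of it Coch.

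The promoters of 3 neighbouring members are shown here because these genes lie side by side on chromosome 13 and all had log2 differences below 0. Each line gives the 250 bases before the gene's start, 5′ to 3′ in the direction of transcription, from RefSeq on GRCm38.p6. Ogn is at chr13:49607765-49608014, Omd at chr13:49582212-49582461 and Aspn at chr13:49544193-49544442, all on the plus strand. Capitals mark matches, on either strand, to TATAAA (bound by the TATA-binding protein), CCGCCC (a core bound by Sp1), TGTGGT (a core bound by RUNX factors), GGAATG (a core bound by TEAD factors) or TGANTCA (bound by AP-1).
Ogn: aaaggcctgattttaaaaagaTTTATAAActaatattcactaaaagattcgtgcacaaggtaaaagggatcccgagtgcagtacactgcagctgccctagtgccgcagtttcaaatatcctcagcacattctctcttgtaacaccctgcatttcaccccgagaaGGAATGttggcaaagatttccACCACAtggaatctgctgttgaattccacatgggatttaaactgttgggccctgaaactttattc
Omd: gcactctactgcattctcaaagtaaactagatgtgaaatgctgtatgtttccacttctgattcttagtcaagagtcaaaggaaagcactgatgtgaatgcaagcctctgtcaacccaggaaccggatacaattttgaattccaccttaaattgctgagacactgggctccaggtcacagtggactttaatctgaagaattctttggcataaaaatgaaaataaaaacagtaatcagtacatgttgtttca
Aspn: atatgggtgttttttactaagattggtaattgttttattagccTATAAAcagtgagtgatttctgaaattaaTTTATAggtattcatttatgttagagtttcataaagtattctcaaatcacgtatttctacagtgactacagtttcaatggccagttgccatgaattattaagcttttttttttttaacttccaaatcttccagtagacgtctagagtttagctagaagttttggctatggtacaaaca
The Ogn window held TATAAA on both strands, in overlapping matches 229 to 222 bases before the start, together with GGAATG 86 to 81 bases and TGTGGT, on the minus strand, 65 to 60 bases before it. The Aspn window held TATAAA at 207 to 202 and, on the minus strand, at 178 to 173 bases before the start. The Omd window held none of the 5 motifs. Of 32851 RefSeq promoter windows of this length, 12.4% held TATAAA, 14.0% TGTGGT, 12.6% GGAATG, 32.7% CCGCCC and 6.7% TGANTCA. Promoter windows were matched for 7 of the 9 members. The 2 without a window were Dcn and Lum, neighbours on chromosome 10 that also had log2 differences below 0 (-0.42 and -0.89). The other windows were Bgn with 3 matches to CCGCCC, Chad with TATAAA at 28 to 23 bases before its start and 1 match to CCGCCC, and Fmod and Prelp with no match. These matches are letters in a window and say nothing of binding.

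Levels were compared between members per kilobase of exon, using the exon lengths of GENCODE M21. Dcn, the gene of decorin, was the most abundant, with 16231 normalized counts per kb over the 6 libraries (10980 to 19470), above 99.7% of genes with a length. Ogn followed with 3665 (2430 to 4902) and Bgn with 2888 (2621 to 3087), and the values of these neighbours overlapped. Fmod with 1406, Chad with 1379, Lum with 1296 and Prelp with 1282 formed a middle group in which each neighbour overlapped the next. Omd with 369.1 and Aspn with 110.4 were the lowest, each apart from the member above it in all 6 libraries. Summed over the 9 members, the level was 30685, 33710 and 32440 per kb under the wildtype label and 28727, 24742 and 21456 under the knockout label. These sums did not overlap, and Dcn supplied between 51.2% and 60.0% of each.

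**Figure D1:**
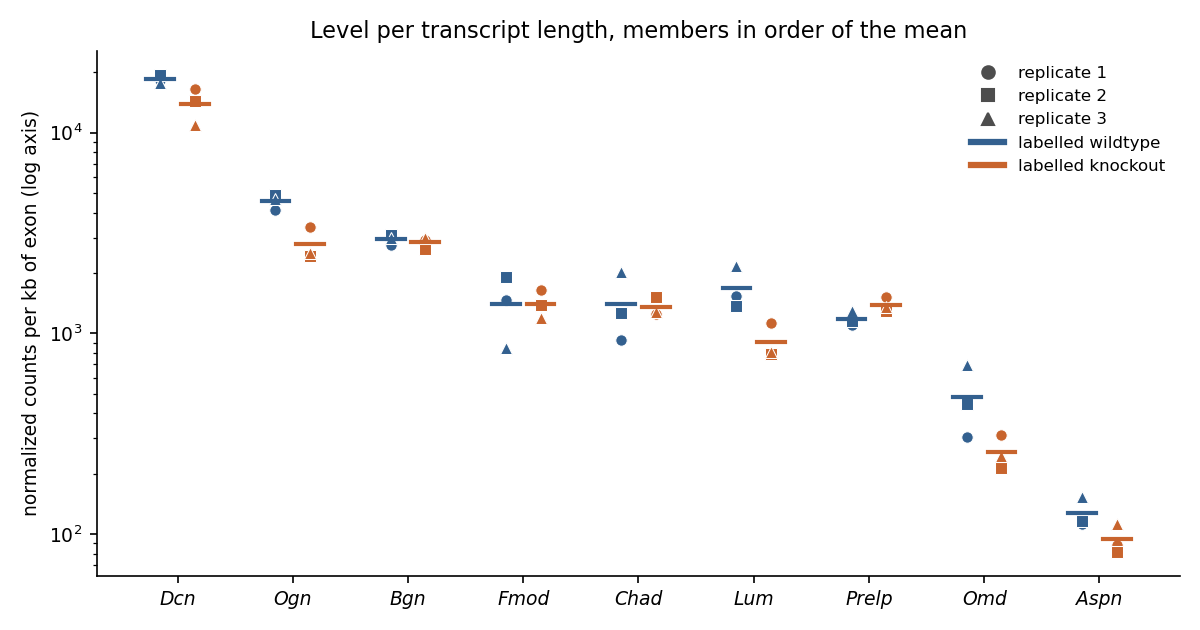
Normalized counts per kilobase of exon (log axis) for each member, in order of the mean over 6 libraries; points are libraries, with shape giving the replicate number, and bars are means of the 3 libraries of a label. Dcn, at 10980 to 19470, lies above every other member in every library, and Omd and Aspn lie below the rest.

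Decorin, biglycan and asporin form class I of the family, the members whose amino-terminal part carries dermatan or chondroitin sulfate or, in asporin, a run of aspartic acid. Dcn (chromosome 10, 97479609 to 97518143, plus strand, mm10) codes for the collagen-binding protein decorin, which also holds transforming growth factor beta. Dcn had 35673, 37753 and 34171 normalized counts under the wildtype label and 32003, 27940 and 21290 under the knockout label. All 3 of the latter lay below all 3 of the former, as for 14.9% of all genes. The means were 35866 ± 1799 and 27078 ± 5408 (SD, n = 3 each). The log2 difference of -0.42 (SE 0.18, 95% interval -0.86 to 0.01) did not pass by limma (adjusted p = 0.257), and without knockout replicate 3, the lowest library, it was -0.26.

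Bgn (X chromosome, 73483602 to 73495933, plus strand) codes for biglycan, the closest relative of decorin. Bgn had 6634, 7467 and 7226 normalized counts under the wildtype label and 7030, 6340 and 7221 under the knockout label. The 2 sets overlapped almost fully. Its log2 difference was -0.05 with a 95% interval of -0.31 to 0.20, the narrowest interval of the 9 (adjusted p = 0.825 by limma). The ratio of Dcn to Bgn per kb, looked at after the values were seen and not tested, was 6.71, 6.31 and 5.9 under the wildtype label and 5.68, 5.5 and 3.68 in the others.

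Aspn (chromosome 13, 49544443 to 49567565, plus strand) codes for asporin, which competes with decorin for collagen. Its normalized counts were 263, 273 and 359 under the wildtype label and 207, 192 and 265 under the knockout label. Knockout replicate 3, at 265, lay just above wildtype replicate 1, at 263, so the groups overlapped. The log2 difference was -0.43 (SE 0.21, adjusted p = 0.292 by limma).

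**Figure D2:**
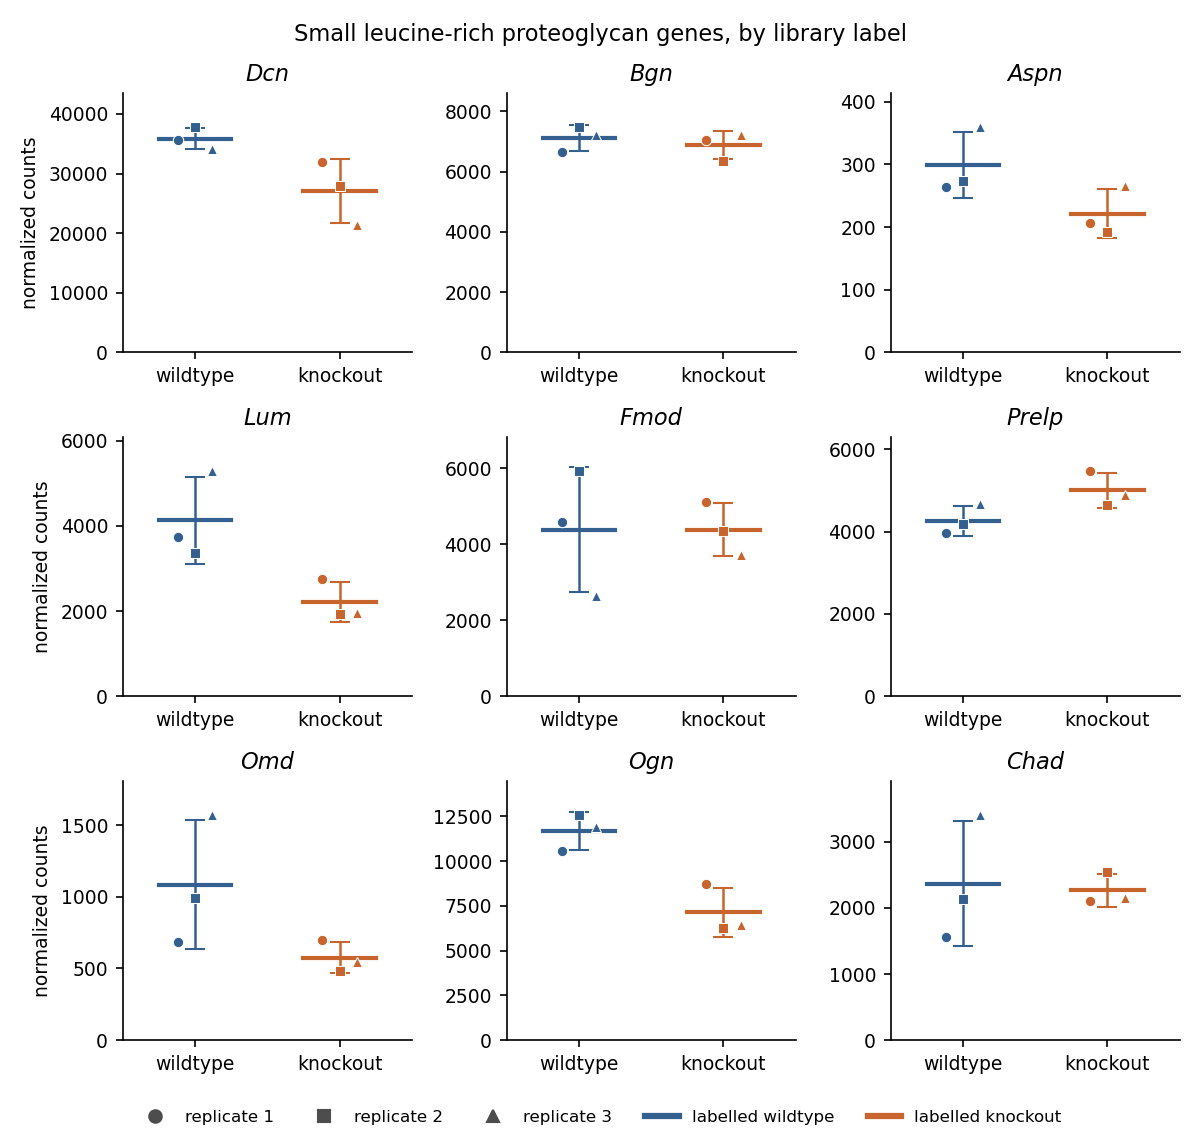
Normalized counts of the 9 members in each library, by label (each axis starts at 0); points are libraries, horizontal bars are means of 3 and whiskers are the SD. Dcn, Lum and Ogn have all 3 libraries labelled knockout below all 3 labelled wildtype, and wildtype replicate 3 (triangle) is highest for Lum, Omd, Aspn and Chad and lowest for Fmod.

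Lumican, fibromodulin, PRELP and osteomodulin are of class II, most of whose members carry keratan sulfate or sulfated tyrosines. Lum (chromosome 10, 97565128 to 97572703, plus strand) codes for lumican, which regulates fibril spacing. Lum had 3753, 3356 and 5290 normalized counts under the wildtype label and 2744, 1931 and 1967 under the knockout label. The groups did not overlap, and wildtype replicate 3 was 1.49 times the mean of the other wildtype libraries. The means were 4133 ± 1021 and 2214 ± 459 (SD, n = 3 each). Its log2 difference of -0.89 (SE 0.21, 95% interval -1.39 to -0.39) was the largest of the 9 in size and did not pass by limma (adjusted p = 0.162, unadjusted p = 0.00393). In the authors' deposited table Lum was 1.87-fold lower with a false discovery rate of 0.00935. Without wildtype replicate 3 its log2 difference was -0.70.

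Fmod (chromosome 1, 134037254 to 134048277, plus strand) codes for fibromodulin, which shares a collagen-binding site with lumican. Fmod had 4581, 5927 and 2652 normalized counts under the wildtype label and 5105, 4340 and 3714 under the knockout label. The means, 4387 ± 1646 and 4386 ± 697 (SD, n = 3 each), were nearly the same, and wildtype replicate 3 was at 0.505 times the mean of the other wildtype libraries. Its log2 difference was 0.06 with a 95% interval of -0.62 to 0.75 (adjusted p = 0.925 by limma), and -0.26 without that library. The ratio of Lum to Fmod per kb, looked at after the values were seen and not tested, was 1.04, 0.722 and 2.54 under the wildtype label and 0.685, 0.567 and 0.675 under the knockout label. Wildtype replicate 3 is thus the library with the most lumican transcript per fibromodulin transcript.

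Prelp (chromosome 1, 133910304 to 133921414, minus strand) codes for a basic member that binds heparan sulfate and anchors basement membranes to connective tissue. Prelp had 3957, 4174 and 4659 normalized counts under the wildtype label and 5470, 4655 and 4887 under the knockout label. The groups overlapped by the 4655 of knockout replicate 2 and the 4659 of wildtype replicate 3. The log2 difference of Prelp was 0.23 (SE 0.11, 95% interval -0.04 to 0.50) and did not pass (adjusted p = 0.305 by limma). The antisense gene Gm15851 shares 350 exon bases with Prelp on the opposite strand. Whether reads were counted by strand is not stated in the labels, so the value of Prelp is uncertain by reads of that gene.

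Omd (chromosome 13, 49582462 to 49592822, plus strand) codes for osteomodulin, an acidic keratan sulfate proteoglycan of mineralised matrix. Its normalized counts were 685, 995 and 1572 under the wildtype label and 699, 482 and 548 under the knockout label. Wildtype replicate 1, at 685, lay just below knockout replicate 1, at 699, and wildtype replicate 3 was 1.87 times the mean of the other wildtype libraries. The log2 difference was -0.84 (SE 0.30, 95% interval -1.56 to -0.13) and did not pass by limma (adjusted p = 0.205). Without wildtype replicate 3 it was -0.54, and in the authors' deposited table its false discovery rate was 0.0627.

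Ogn is of class III and Chad of class IV. Ogn (chromosome 13, 49608046 to 49624501, plus strand) codes for osteoglycin, also called mimecan, a small member that takes part in fibril assembly. Ogn had 10533, 12578 and 11928 normalized counts under the wildtype label and 8706, 6235 and 6444 under the knockout label. The groups were well apart, with the highest library labelled knockout at 8706 and the lowest labelled wildtype at 10533. The means were 11680 ± 1045 and 7128 ± 1370 (SD, n = 3 each). Its log2 difference of -0.73 (SE 0.16, 95% interval -1.10 to -0.35) did not pass by limma (adjusted p = 0.158, unadjusted p = 0.00261). In the authors' deposited table Ogn was 1.64-fold lower with a false discovery rate of 0.00583. Its log2 difference stayed between -0.88 and -0.64 when each library was left out in turn.

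Chad (chromosome 11, 94565047 to 94569127, plus strand) codes for chondroadherin, a cartilage protein without a glycosaminoglycan chain that binds collagen and integrins. Chad had 1558, 2130 and 3410 normalized counts under the wildtype label and 2107, 2550 and 2146 under the knockout label. The knockout values lay within the wildtype range. Its log2 difference was 0.01 with a 95% interval of -0.63 to 0.65 (adjusted p = 0.990 by limma). It was 0.31 without wildtype replicate 3 and -0.25 without wildtype replicate 1.

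**Figure D3:**
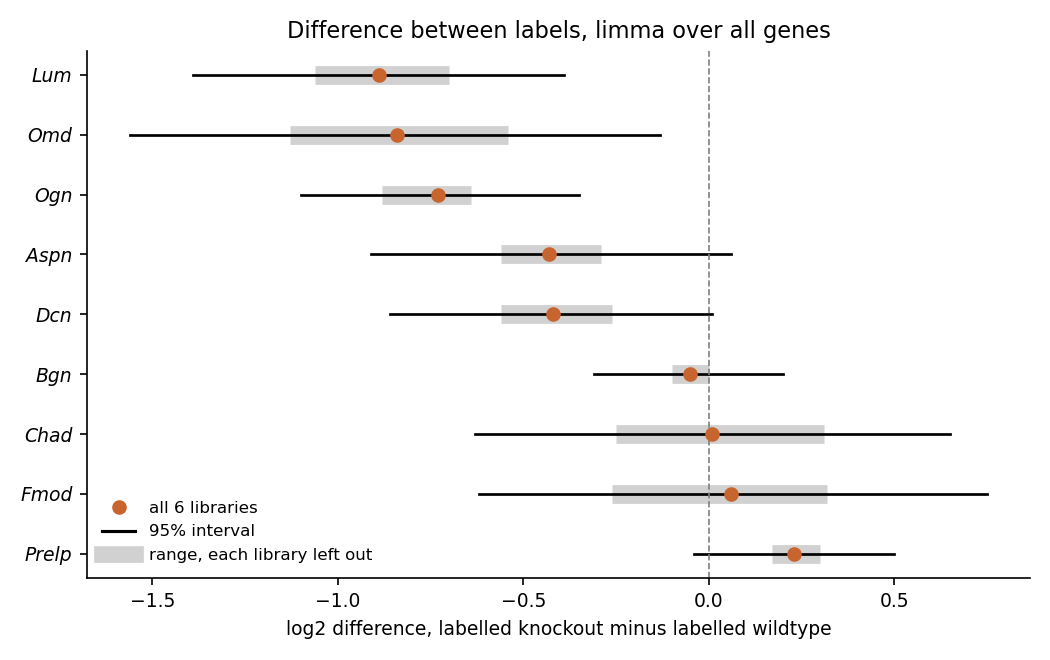
Log2 difference of each member, labelled knockout minus labelled wildtype (points), with its 95% interval from limma (lines) and the range when each library is left out in turn (grey bars). The intervals of Lum, Ogn and Omd lie below 0 before adjustment over all genes, and those of the other 6 members span 0.

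The make-up of the family within a library does not depend on the scaling between libraries. Ogn made up 13.4%, 14.5% and 14.3% of the summed member level per kb under the wildtype label and 11.8%, 9.82% and 11.7% under the knockout label. Prelp made up 3.57%, 3.43% and 3.97% under the first label and 5.27%, 5.2% and 6.3% under the second. The shares of Lum (5.0%, 4.07% and 6.66%, then 3.9%, 3.19% and 3.74%) and Bgn (8.94%, 9.16% and 9.21%, then 10.1%, 10.6% and 13.9%) did not overlap between labels either. These 4 were named after the shares were seen, and the shares of the remaining members overlapped. Shares add up to the whole, so these 4 are not independent. Normalized counts, a different measure, did not overlap between labels for 28.5% of all genes. The ratio of Ogn to Prelp per kb was 3.75, 4.25 and 3.61 under the wildtype label and 2.24, 1.89 and 1.86 in the others; this pair was chosen after the values were seen and was not tested. Dcn and Bgn together, the members with dermatan or chondroitin sulfate chains, were 2.21, 2.02 and 1.74 times the sum of the other 7 under the wildtype label. Under the knockout label the same ratio was 2.08, 2.21 and 1.86, a log2 difference of 0.05 that was below the spread between replicates (SD 0.17 and 0.12). With 3 libraries of each label an exact permutation test could not give a p below 0.1.

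The members fall into 3 clusters of family genes, on chromosomes 1, 10 and 13, with Bgn and Chad elsewhere. The cluster on chromosome 13 spans 120 kb by RefSeq and holds Ecm2, Aspn, Omd and Ogn in this order. Ecm2, an extracellular matrix protein with related repeats and no member of the set of 9, had 1531, 1748 and 1147 normalized counts under the wildtype label and 1764, 1310 and 1525 under the knockout label. That is a log2 difference of 0.07, against -0.43, -0.84 and -0.73 for the 3 genes beside it. Without wildtype replicate 3 Ecm2 was at -0.10, Aspn at -0.29 and Omd at -0.54. All 4 lie within Cenpp, a centromere protein gene on the opposite strand, without sharing exon bases with it. Cenpp had 33 to 57 normalized counts in the 6 libraries, far below the 6235 to 12578 of Ogn.

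The cluster on chromosome 10 spans 202 kb and holds Dcn, Lum, Kera and Epyc. Epyc, the gene of epiphycan, a cartilage member also made in the cochlea, had 4785, 6353 and 16117 normalized counts under the wildtype label and 6339, 4130 and 6361 under the knockout label. Wildtype replicate 3 was 2.89 times the mean of the other wildtype libraries, and the log2 difference of -0.52 had a standard error of 0.44. Without that library the log2 difference was 0.00 (adjusted p = 0.995 by limma). Epyc shares 1041 exon bases with Gm10754 on the opposite strand, so its counts are uncertain. Kera, the corneal member keratocan, was listed at 0 in 4 libraries, at 40 in wildtype replicate 3 and at 5 in knockout replicate 3. On chromosome 1, Optc, Prelp and Fmod lie within 151 kb, and Optc, the ocular member opticin, had 2 to 5 normalized counts. Of 9 other family genes measured, none passed by limma (none with a p under 0.05 before adjustment, and none called in the authors' deposited table), and their median log2 difference was -0.24. The median of the 9 members was -0.42, and that of all genes 0.006. Without wildtype replicate 3 these list medians were 0.00 for the other family genes and -0.29 for the members.

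**Figure D4:**
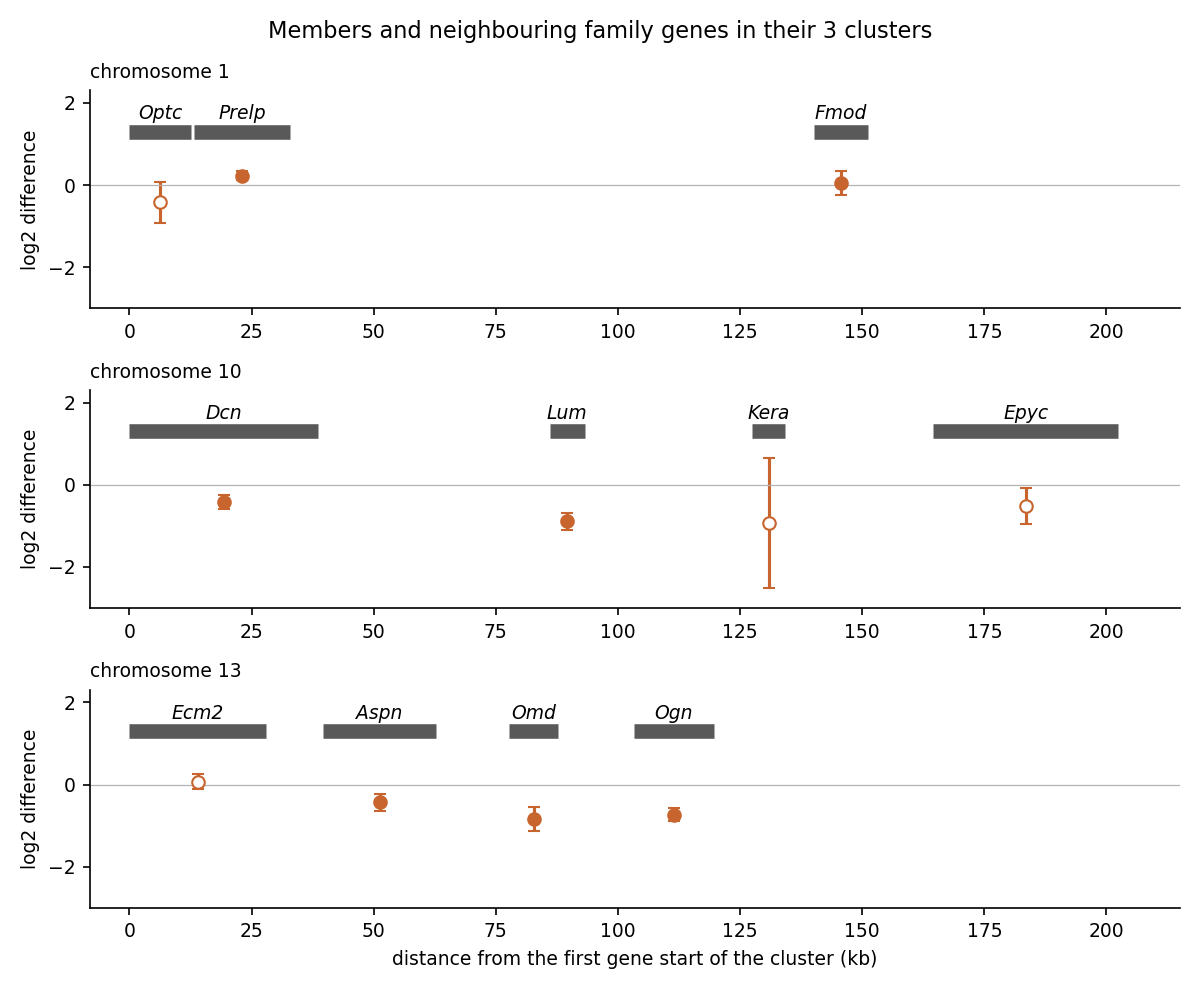
Log2 difference (labelled knockout minus labelled wildtype) of the family genes in their clusters on chromosomes 1, 10 and 13, against the distance in kb from the first gene start; grey bars are the genes, filled points the members, open points other family genes and whiskers the standard error. Aspn, Omd and Ogn have values of -0.43, -0.84 and -0.73 beside 0.07 for Ecm2. Kera is at -0.92 with a standard error of 1.58, from only 0 to 40 normalized counts per library.

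Genes whose products are the collagens that these proteins bind did not pass by limma in any of 14 cases. Before adjustment 6 had a p under 0.05, all higher under the knockout label, as did 10.8% of all genes. The authors' deposited table called the same 6 as higher, against 3.66% of all genes: Col2a1, Col5a1, Col6a1, Col6a2, Col6a3 and Col12a1, named after their values were seen. Col12a1, a fibril-associated collagen, had 2216, 1503 and 1865 normalized counts under the wildtype label and 5083, 3633 and 4495 under the knockout label. The difference was 1.25 on the log2 scale (adjusted p = 0.0839 by limma) and 1.26 without wildtype replicate 3 (adjusted p = 0.0391). Col1a2, the abundant chain of type I collagen to which decorin, lumican and fibromodulin bind, had a log2 difference of -0.01, and Col11a2, with the highest mean of normalized counts among the 14 (not per kb), one of 0.58. The list median of 0.56 was 0.27 after a correction for transcript length, in which Col12a1 was at 0.72. Without wildtype replicate 3, Col6a3, Col12a1 and Col11a2 passed, in a fit that called 419 of 17666 genes, against 28 with all libraries.

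Of 18 measured growth factors and receptors that members bind, none passed by limma, and 4 had a p under 0.05 before adjustment, all higher under the knockout label, against 10.8% of all genes. These were Tgfb3, a ligand held by decorin, Bmp2, Kdr and Lrp1, the uptake receptor for decorin, named after their values were seen; the authors' deposited table called the same 4. Lrp1 had 16109, 10007 and 24382 normalized counts under the wildtype label and 41395, 38488 and 45472 under the other. Lrp1 thus had a log2 difference of 1.40 (adjusted p = 0.158 by limma), and 0.71 after the length correction. Without wildtype replicate 3, Lrp1, Kdr and Igf1r passed, in a fit that called 419 of 17666 genes, against 28 with all libraries. However, Igf1r was at 0.33 with all libraries (adjusted p = 0.523 by limma) and at -0.16 after the length correction. Tgfbr2, with the next highest mean of normalized counts (not per kb), had a log2 difference of 0.20 (0.46 without wildtype replicate 3 and -0.13 after the length correction).

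Of 30 enzymes that build and sulfate the chains, none passed by limma. Before adjustment 1, Chst12, had a p under 0.05 (log2 difference 0.40, against 10.8% of all genes higher at that level), none was called in the authors' deposited table, and their median log2 difference was 0.10, with 11 below 0 and 19 above. Single differences reached 1.65 for Xylt1, which attaches the first xylose of a chain (167, 19 and 73 normalized counts under the wildtype label and 239, 238 and 133 under the knockout label), and -0.84 for Chsy3, a chondroitin synthase, neither past the test and both named after their values were seen. Fam20b, the xylose kinase of chain initiation, had a log2 difference of 0.02, and Chst2, a keratan sulfate sulfotransferase, one of 0.22 (-0.15 without wildtype replicate 3). Of 14 proteases and processing factors none passed by limma, and none was called by the authors' deposited table. Before adjustment 2 had a p under 0.05, Tll2 at 1.45 and Adamts1 at 0.79, both higher, against 10.8% of all genes higher at that level. Tll2 was scarce, with 11, 10 and 9 normalized counts under the wildtype label and 20, 40 and 30 under the knockout label. Mmp14 was at 0.24 (0.48 without wildtype replicate 3) and Adamts5 at 0.04 (-0.23 without that library and -0.43 after the length correction).

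Of 8 measured complement genes, C3 and C4b passed by limma, both higher under the knockout label, against 0.102% of all genes. The other 6 did not pass. The 8 were listed because members of the family bind complement proteins. Before adjustment C1qb and Mbl2 also had a p under 0.05, both lower without overlap, against 9.20% of all genes lower at that level. Mbl2 was scarce, at 6 to 25 normalized counts, with a log2 difference of -1.16. C3, the central component, had 558, 757 and 643 normalized counts under the wildtype label and 2329, 1757 and 1927 under the knockout label. Its log2 difference was 1.62 (SE 0.16, adjusted p = 0.0297 by limma), and after the length correction it no longer passed (1.48, adjusted p = 0.0632). C4b, of the classical pathway, had a log2 difference of 1.2 (adjusted p = 0.0214 by limma). Neither passed without wildtype replicate 2 (adjusted p = 0.0871 for both) or without any 1 knockout library, where the adjusted p was 0.141 to 0.227 for C3 and 0.112 to 0.227 for C4b. Chains of C1q, the ligand shared by several members, had log2 differences of -0.28 for C1qa, -0.33 for C1qb and -0.03 for C1qc, none of which passed.

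In bulk tissue, fewer cells of a type and less RNA per cell cannot be told apart. Fibroblast markers, of the cells that make most of these proteins, had summed levels of 76044 to 97772 normalized counts under the wildtype label. Under the knockout label the sums were 96372 to 105999, which overlapped the former. Much of the higher sum came from Fn1, at 12326 to 14526 and then 19690 to 31204. The list was split, with 7 log2 differences below 0 and 7 above. Before adjustment 3 markers were higher at a p under 0.05 by limma and 1, Ly6a at -0.54, was lower, against 10.8% and 9.20% of all genes. Of 14 markers, Pi16 rose (log2 difference 2.14, adjusted p = 0.0297 by limma; 1.96 with adjusted p = 0.0561 after the length correction) and 13 did not pass. Pi16 did not pass by limma without wildtype replicate 2 (adjusted p = 0.0871) or without any 1 knockout library (0.141 to 0.263). The first of these fits called 1 gene over the whole table and the others 0. The log2 difference of Pi16 there was 2.1 to 2.27. The authors' deposited table called Pi16, Pdgfrb and Fn1 as higher, against 3.66% of all genes. Osteoblast markers, of cells that also make Ogn and Omd, had summed levels of 124806 to 313429 and 98630 to 120867, which do not overlap. Nearly all of that sum was Spp1, at 298110 in wildtype replicate 3. Of 10 osteoblast genes none passed by limma, 3 had a p under 0.05 before adjustment, and the same 3 were called as lower in the authors' deposited table. These were Bglap, Bglap2 and Ibsp, with log2 differences of -2.08, -2.24 and -1.12, against 9.20% of all genes lower at that level. The list was divided, with 5 genes below 0 and 5 above, among them Runx2 at 0.46, whose values did not overlap, Sp7 at 0.25 and Alpl at 0.15.

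Cartilage markers had summed levels of 44772 to 74891 and 51892 to 58683 under the wildtype and knockout labels, and tendon and ligament markers 826 to 1419 and 810 to 1175. Both sums overlapped, as did those of perineurial cells (24328 to 51477 and 26113 to 33147), mural cells (16293 to 22069 and 16397 to 20006) and macrophages (5111 to 5964 and 5521 to 6414). Before adjustment 4 of 10 cartilage genes had a p under 0.05 by limma. Acan (log2 difference 0.79) and Col2a1 (0.64) were higher, and Ucma (-1.09) and Col9a3 (-0.28) lower, against 10.8% and 9.20% of all genes. In the ligament, perineurial, mural and macrophage lists 1 gene each had such a p: Tnmd (-0.77), Itgb4 (0.61), Tagln (-0.35) and Cd68 (-0.42). Red cell markers had 10828 to 34669 under the wildtype label and 2727 to 4001 under the knockout label. Every listed gene was lower at a p under 0.05 by limma before adjustment, against 9.20% of all genes, and none passed after it. The authors' deposited table called all 9 as lower, against 2.87% of all genes. Hbb-bt and Hbb-b2 had the same value in every library, so the 9 listed genes are 8 measurements and the sums count 1 of them again. The highest level of the osteoblast, cartilage, ligament, perineurial, mural, spiral ligament and red cell lists was in wildtype replicate 3, the library that also had the highest Lum, Omd, Aspn, Chad and Epyc. The same library had the lowest level of the neuron (314417), Schwann cell (403580) and fibroblast (76044) lists. It was also lowest for macrophages, at 5111 beside 5113 in wildtype replicate 2. No marker list had a gene at 0 in every library. The part of these tissues in the members' values was not tested.

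Genes most like 8 of the members in pattern were found by the root mean square difference of log2 values, each centred on its mean over the 6 libraries, among 13376 genes with a mean of at least 100. For Ogn, whose own spread was 0.401, the nearest were Magohb (0.051), Zfp825 (0.086), Tmem126a (0.101), Cav1 (0.105) and Trmt11 (0.111). Omd, with a spread of 0.568, was nearest to Tnmd (0.083), the tendon and ligament gene tenomodulin, and Srgn (0.107). Dcn was nearest to Lipt2 (0.065) and Btbd19 (0.073), and Lum to A730020M07Rik (0.113) and Rps28 (0.146). The nearest to Chad were Rnase1 (0.108) and BC022687 (0.126), and to Aspn Rpl7a (0.032) and Gm5643 (0.061). Bgn and Prelp varied little, with spreads of 0.081 and 0.151, and were nearest to Clic4 (0.027) and Lhpp (0.028), and to Pld2 (0.043) and Plagl2 (0.046). Between members, Dcn and Ogn (0.211) and Lum and Ogn (0.228) were closer than the spread of either gene, whereas the 0.164 between Bgn and Prelp exceeded both of theirs. Fmod and Omd (0.791) were the farthest apart. With 6 libraries and 1 of them apart from the rest, such distances describe these libraries only.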

How the data were processed

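Total RNA of the 6 samples, each the auditory nerves of 1 mouse, was sequenced from TruSeq libraries, per the labels' protocols. The submitters' processing notes name TopHat2, DESeq2, Partek and mm10, without versions or roles. The authors deposited a score per gene and library: counts divided by a factor per library, given as whole numbers (normalized counts). This is read from the values: median-of-ratios factors were 1.0038 to 1.0068, and 99.8% of 13938 deposited folds, for genes with both means over 50, lay within 1% of the ratio of column means. Reads were not recovered, and 0 columns of sample values were left unused. Signed folds and false discovery rates of the authors stand beside them, per the file headers, the rate missing for 2061 genes.

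Limma 3.58.1 (R 4.3.3) was fitted on log2(value + 1) over the 17666 genes (all had a mean of 1 or more), with label as the term and a trend, and adjusted by Benjamini-Hochberg at 0.05. On this scale changes of low genes are understated. Lengths and positions came from GENCODE M21 (GRCm38, the same assembly as mm10), matched for 98.3% of genes, and from RefSeq GRCm38.p6. The length correction removed each library's trend on exon length and was chosen after seeing the data. The script was tested on simulated data.

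Named were all members, the genes of each list past the threshold (or else the 2 with the highest mean) and the nearest genes by pattern, which are not reported here for Fmod. Members and lists were chosen with earlier results of these data known. Further genes named after their values were seen are given as such, or stand for counts, neighbours or markers. Alternatives were the pseudocount, the filter, the trend, array weights, TMM factors, quantile normalization, the authors' deposited table, a replicate block and leaving out each library.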

Additional observations from a re-analysis of the deposited data

How the results depend on the processing

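Over 17 alternatives for each of the 9 members, 142 of 153 values kept their direction and their side of the threshold. Part of this count carries no information. All genes passed the filter, so the fit without it repeated the main fit. The fits without a knockout library called no gene at all, so every member stayed uncalled there. Lum, Ogn, Omd, Dcn and Aspn stayed below 0 and Prelp above 0 in all 17. The members called by limma were 0 in every fit, including those that left out 1 library, and 2 (Ogn and Lum, log2 -0.71 and -0.90) in the authors' deposited table; the lowest adjusted p of limma was 0.0687 for both. The direction turned for 3 members: Fmod was at -0.13 with array weights and at -0.26 to 0.32 without single libraries, Chad at -0.02 with quantile normalization, -0.06 in the authors' deposited table and -0.25 to 0.31 without single libraries, and Bgn at 0.03 after the length correction. The ratio of Dcn and Bgn to the other members ranged from -0.05 to 0.13 without single libraries. Genes called over the table were 28, against 16 without the trend, 111 with array weights, 18 after the length correction, 1153 in the authors' deposited table and 0 to 419 without single libraries (0 without any 1 of the knockout libraries, with 2222, 1797 and 1891 at an unadjusted p under 0.05, 1 and 87 without wildtype replicate 2 and 1, and 419 without wildtype replicate 3). With the replicate number as a block 7 genes were called, no member among them, and the ratio was 0.05. Libraries with the same number deviated together with correlations of -0.034, 0.086 and 0.201 across 15267 genes whose mean was 20 or more, and wildtype replicate 1 correlated best with knockout replicate 2 (0.391), so the numbers were not taken to pair the mice. The cause of these differences was not tested. No read depth is known, and 3 libraries of each label limit the precision.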
